A study of Mus musculus with 9 samples.

Results

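The genes described here are 59 mouse genes for enzymes that add or remove methyl and acetyl groups on histones, together with subunits of the Polycomb complexes and the HP1 readers of histone methylation. They were listed by function, with earlier results of these data known, from the 25085 genes to which the deposited transcript counts were summed. The series concerns nucleosome spacing in neurons and glia, and polyadenylated RNA was sequenced from purified primary cultures of DRG, OPC and Astrocytes, each in 3 biological replicates. DRG cultures hold sensory neurons of the dorsal root ganglia, dissected from embryos at E13.5 and kept in culture for about 2 weeks. OPC cultures hold oligodendrocyte progenitor cells, the dividing cells that give rise to myelin-forming oligodendrocytes, dissected from cortex at postnatal day 6 to 9 and kept for 6 to 7 days. Astrocyte cultures came from cortex at postnatal day 1 to 3 and were kept for about 21 days, until the dish was full. Mice of either sex gave the cortical cultures, and the labels name no strain, genotype or treatment. Donor age, time in culture and cell type changed together in each comparison and cannot be told apart. These are bulk samples, so fewer cells of a type and less RNA per cell cannot be told apart either.

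Histones carry methyl and acetyl groups that are placed by methyltransferases and acetyltransferases and removed by demethylases and deacetylases. Polycomb repressive complex 2 (PRC2) methylates lysine 27 of histone H3 through EZH1 or EZH2, and Polycomb repressive complex 1 (PRC1) ubiquitinates histone H2A and reads that methyl mark through CBX proteins. HP1 proteins read methylated lysine 9 of histone H3, the mark of heterochromatin. EZH2 is known as the PRC2 enzyme of dividing cells and EZH1 as that of cells that have left the cell cycle, neurons included.

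Assigned counts per library ran from 30710093 to 53594210. The 3 cell types carried their own markers: 8 sensory neuron genes summed to 9536 to 11738 CPM (counts per library scaled to 1000000) in DRG, against 71.8 to 133 in OPC and 9.50 to 24.7 in Astrocytes, with Prph at 0 in all 9 libraries. Prph has 3 counted transcripts, and reads shared by several transcripts could be set aside, as described below. Its 0 therefore does not show that Prph RNA was absent. Sums of 6 OPC markers were 10.1 to 24.9 CPM in DRG, 5075 to 6750 in OPC and 281 to 1211 in Astrocytes. Sums of 7 astrocyte markers were 8.84 to 27.4 CPM in DRG, 766 to 1052 in OPC and 6000 to 7556 in Astrocytes. By mean CPM, the astrocyte sum in OPC came mostly from Slc1a3 (794) and Sox9 (114). Slc1a2 was low in both glial types and did not separate them, at 4.43 in OPC and 3.66 in Astrocytes. The other astrocyte markers were low in OPC: Aldh1l1 12.9, Gja1 1.45, Aqp4 1.15 and Gfap 0.42. The OPC sum in Astrocytes came mostly from Olig1 (734) and Olig2 (124), with Cspg4 at 23.6, Sox10 at 1.47, Gpr17 at 0.40 and Pdgfra at 0.34. The part of these shared genes in OPC against Astrocytes was not tested. Sums of 10 cell cycle genes were 71.7 to 79.2 CPM in DRG, 4135 to 6913 in OPC and 403 to 2510 in Astrocytes. Astrocytes 1 stood apart from Astrocytes 2 and 3, with 403 CPM of cell cycle genes against 2510 and 1866 in the other two, 2413 CPM of 7 microglia genes against 422 and 387, and 13.4 CPM of 6 fibroblast and mural genes against 326 and 241. These fibroblast and mural genes summed to 229 to 425 CPM in DRG, 0.651 to 1.36 in OPC and 13.4 to 326 in Astrocytes. They were also higher in every DRG library than in every OPC library, and their part in DRG against OPC was not tested. Sums of 6 Schwann and satellite glia genes were 50.7 to 197 CPM in DRG, 1462 to 2596 in OPC and 3054 to 13927 in Astrocytes, highest in Astrocytes 1. OPC 3 had fewer counts from long transcripts than OPC 1 and 2: the median log2 ratio to their mean was −0.34 for the quintile of genes with the longest transcripts and 0.28 for the quintile with the shortest. Among members with 1 transcript accession the same median was −0.47 for 20 members with long transcripts and 0.02 for 17 with shorter ones.

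Reads were counted per RefSeq transcript with HTSeq, which by default sets aside a read that could belong to several of them, and 22.0 to 24.7% of reads were set aside as ambiguous. For 37 members the files hold 1 accession, and the count covers the whole transcript. For the other 22 members the count was taken to rest on reads that tell their transcripts apart, so their levels say little of the whole gene and are compared here only between cell types. That does not account for all counts: Kat2b (674 counts), 1 accession of Hdac5 (291) and 1 of Kat5 (186) had counts although GENCODE gives these accessions 0 bases of their own. Where counts rest on isoform-specific reads, a change in isoform use and a change in the level of the gene cannot be told apart. Ehmt1 and Ehmt2, the enzymes of H3K9 mono- and dimethylation, have 4 accessions each and had 0 counts in all 9 libraries. Hdac7, with 8 accessions, had 26 counts in all. These 3 genes were not tested, and 56 of 59 members passed the filter on low counts. Of the 56, Setdb1 passed through OPC alone, so its difference from the other types was in part fixed by the filter. It is still counted below among members lower in DRG than in OPC and higher in OPC than in Astrocytes. Ezh2, Suv39h2 and Kdm3a passed through OPC and Astrocytes, with all 3 DRG libraries under the minimum for Ezh2 and Suv39h2 and 1 for Kdm3a. The lower DRG levels of Ezh2 and Suv39h2 were thus in part fixed in the same way.

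Members were mostly lower in DRG than in OPC. Of 56 tested, 4 were higher and 30 lower in DRG and 22 did not pass (7.1% and 53.6%), where over all 14850 genes tested 28.4% were higher and 31.1% lower. Against Astrocytes, 4 members were higher and 25 lower in DRG and 27 did not pass (7.1% and 44.6%), beside 27.4% and 32.7% of all genes. In OPC against Astrocytes, 20 members were higher and 4 lower and 32 did not pass (35.7% and 7.1%), beside 26.3% and 25.5% of all genes. The median log2 fold change of the members was −0.88 for DRG against OPC, −0.46 for DRG against Astrocytes and 0.42 for OPC against Astrocytes, beside −0.08, −0.13 and 0.09 over all genes. Counting both directions, 34, 29 and 24 of the 56 members were called in DRG against OPC, DRG against Astrocytes and OPC against Astrocytes. Of all genes, 59.5%, 60.2% and 51.8% were called. The share of members called was thus near the background in DRG against OPC and below it in both comparisons with Astrocytes. The calls of members were more one-sided than those of all genes. These 3 comparisons share libraries and are not independent of each other. At a difference of at least 2-fold, 2 members were higher and 25 lower in DRG than in OPC, 2 higher and 18 lower in DRG than in Astrocytes, and 12 higher and 3 lower in OPC than in Astrocytes. Of all 14850 genes, 3708 were higher and 3692 (24.9%) lower in DRG than in OPC by that much. The shares were 22.1% and 28.2% in DRG against Astrocytes, and 18.2% and 22.9% in OPC against Astrocytes. In either direction they were 49.8%, 50.3% and 41.0%. Counts within single roles, below, rest on 3 to 12 genes and are descriptions. Among the 37 members with 1 accession, 4 were higher and 19 lower in DRG than in OPC, 4 and 18 in DRG against Astrocytes, and 13 and 3 in OPC against Astrocytes. Without Astrocytes 1 and OPC 3, the counts were 5 and 28, 5 and 21, and 10 and 5. Leaving out Astrocytes 3 alone gave 14 members higher in OPC than in Astrocytes. Fewer libraries enter these fits, and the part of single libraries in the counts was not tested. The p-values measure the spread between these cultures, and values after log2 are fold changes ± SE, where the SE was back-calculated from the F statistic.

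**Figure D1:**
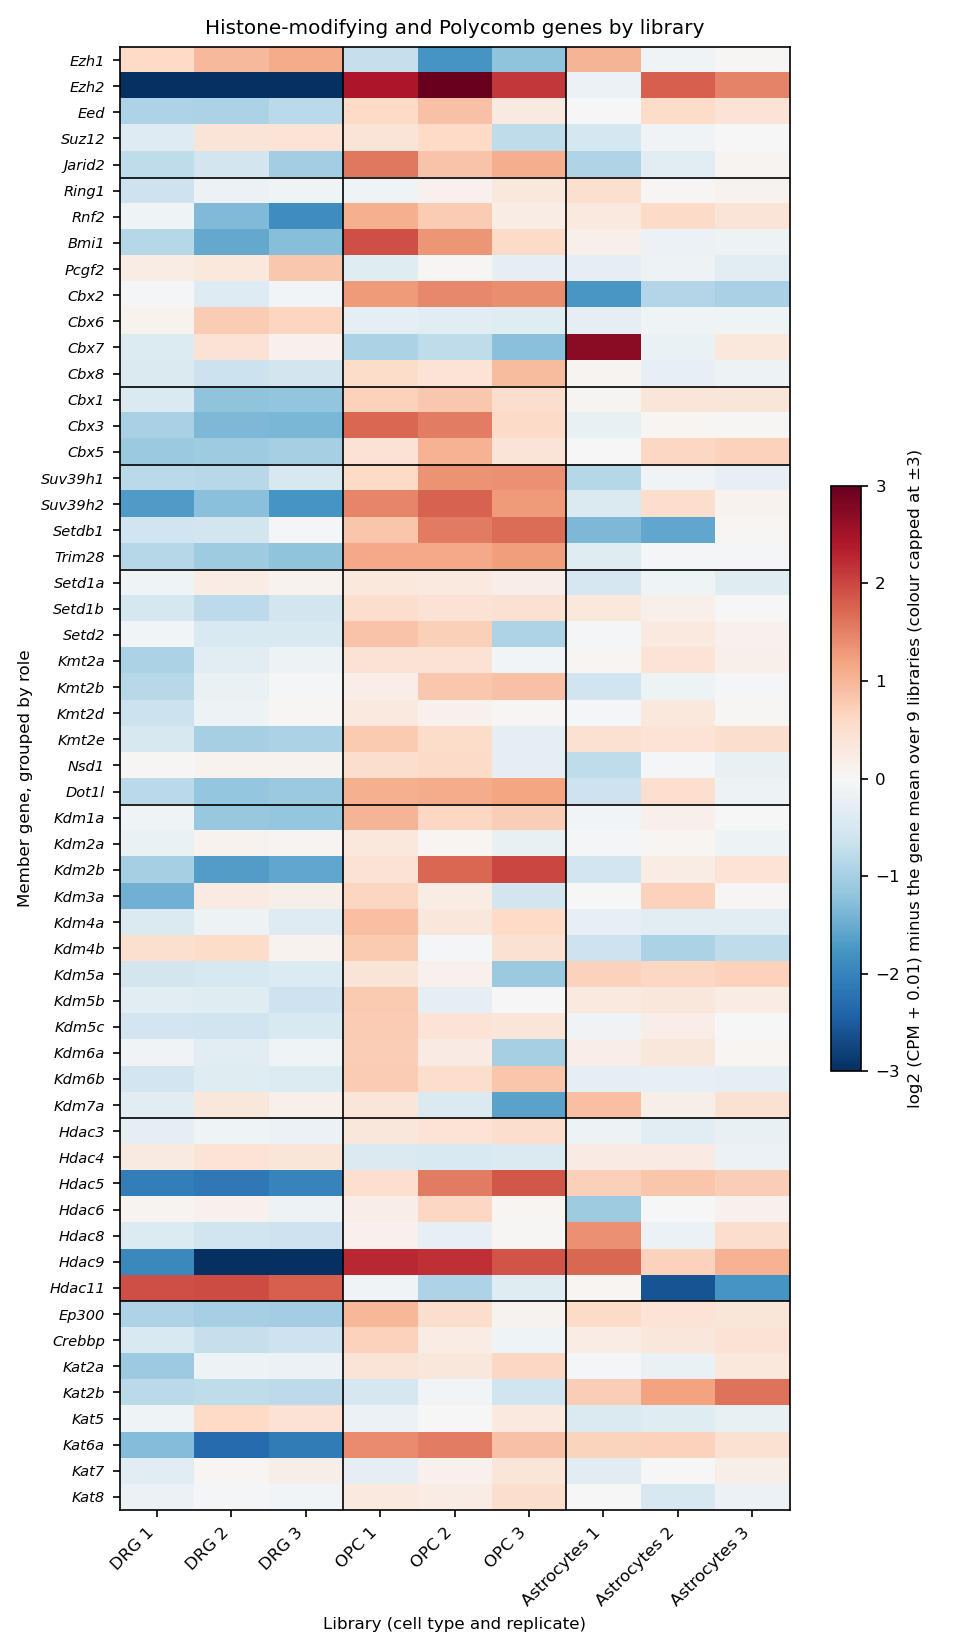
Levels of the 56 tested members in each of the 9 libraries, as log2 (CPM + 0.01) minus the mean of that gene, with genes grouped by role and the colour capped at 3. Most rows are below their mean in the 3 DRG libraries, with Ezh1, Cbx6 and Hdac11 above it, and Cbx7 stands out in Astrocytes 1.

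The core of PRC2 differed in its enzyme. Ezh1, at chr11:101191115-101226463 of GRCm38.p6, gave 50.3, 65.5 and 72.1 CPM in DRG, 20.3, 9.75 and 14.2 in OPC and 67.5, 30.8 and 34.1 in Astrocytes. All 3 DRG libraries were above all 3 OPC libraries, whereas Astrocytes 1 lay within the DRG range. Ezh1 was 4.24-fold higher in DRG than in OPC (adjusted p = 0.00116, log2 2.08 ± 0.37). In OPC, Ezh1 was 2.99-fold lower than in Astrocytes (adjusted p = 0.00618, log2 −1.58 ± 0.37). Against Astrocytes the difference of DRG was 0.50 (SE 0.36, adjusted p = 0.252) and did not pass. Without Astrocytes 1 it was 0.94 (adjusted p = 0.0304), and without Astrocytes 1 and OPC 3 it was 1.04 (adjusted p = 0.0233).

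Ezh2, at chr6:47530274-47595270, has 2 accessions, and its transcripts differ only in short stretches of coding sequence. The 2 stretches, read from GENCODE vM21 transcripts on GRCm38 (minus strand), are shown because the Ezh2 counts rest on reads that reach or skip them; capitals mark the bases that belong to 1 accession alone, with 12 neighbouring bases of the transcript on each side. The first lies at chr6:47551717-47551731 and the second at chr6:47576536-47576562.
Ezh2 accession 1, 15 bases: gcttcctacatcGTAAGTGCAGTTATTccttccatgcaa
Ezh2 accession 2, 27 bases: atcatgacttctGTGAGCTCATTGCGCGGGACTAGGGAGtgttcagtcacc
Ezh2 counts were 4, 5 and 7 in DRG, 410, 678 and 310 in OPC and 81, 251 and 173 in Astrocytes. As levels this is 0.135, 0.105 and 0.181 CPM in DRG, 9.17, 13.8 and 7.46 in OPC and 1.52, 5.96 and 4.78 in Astrocytes. The DRG libraries were far below all others, and the OPC and astrocyte ranges did not overlap. Ezh2 was 71.2-fold lower in DRG than in OPC (adjusted p = 5.06e-05, log2 −6.15 ± 0.64) and 28.7-fold lower in DRG than in Astrocytes (adjusted p = 0.000151, log2 −4.84 ± 0.61). Accession 1 had 0 counts in the 3 DRG libraries, and accession 2 was lower in DRG than in OPC (log2 −6.07, adjusted p = 5.56e-05) and than in Astrocytes (log2 −4.75, adjusted p = 0.000174).

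In OPC, Ezh2 was 2.48-fold higher than in Astrocytes (adjusted p = 0.0494, log2 1.31 ± 0.49). This call was lost without any 1 of Astrocytes 1, Astrocytes 3, DRG 1, DRG 2, DRG 3, OPC 1, OPC 2 and OPC 3 (log2 0.92 to 1.44, adjusted p = 0.0615 to 0.162), and without Astrocytes 1 and OPC 3 together (log2 0.94, adjusted p = 0.0748), and with RLE factors, library size alone, no filter, the top accession and the compared libraries alone. In Astrocytes 1, Ezh2 was the lowest of the 3 astrocyte libraries, as were the summed cell cycle genes; the part of cell division in these levels was not tested. The log2 ratio of Ezh1 to Ezh2 counts was 8.37, 9.14 and 8.54 in DRG, 1.15, −0.50 and 0.93 in OPC, and 5.46, 2.37 and 2.83 in Astrocytes. The absolute ratio has no meaning, because the 2 genes were counted over different lengths. Its difference between cell types can be read only if isoform use of Ezh2 is the same in each, which was not tested. In DRG the ratio rests on 4, 5 and 7 Ezh2 counts, under the minimum of the filter. The log2 ratio differed by 8.16 between DRG and OPC, by 5.13 between DRG and Astrocytes and by −3.03 between OPC and Astrocytes, with no overlap between any pair of cell types. The exact two-sided permutation p was 0.1 for each, the smallest that 3 against 3 libraries can give, and stayed 0.1 after adjustment over the 3 comparisons.

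Sequences at a transcript start of both genes are shown because Ezh1 and Ezh2 differed in opposite directions in DRG against OPC. They are RefSeq windows of GRCm38.p6, minus strand, each with the 250 bases before a RefSeq transcript start. The Ezh2 window, at chr6:47595019-47595280, precedes an internal start, holds the first 12 bases transcribed from it and lies almost wholly inside the gene as annotated above. The Ezh1 window, chr11:101226464-101226713, lies wholly before the gene. Capitals mark matches to the letters TTTGGCGC or TTTCCCGC (E2F), CCAAT and, for NRF1, GCGCA and GCGC with any 1 base between them, on either strand.
Ezh2: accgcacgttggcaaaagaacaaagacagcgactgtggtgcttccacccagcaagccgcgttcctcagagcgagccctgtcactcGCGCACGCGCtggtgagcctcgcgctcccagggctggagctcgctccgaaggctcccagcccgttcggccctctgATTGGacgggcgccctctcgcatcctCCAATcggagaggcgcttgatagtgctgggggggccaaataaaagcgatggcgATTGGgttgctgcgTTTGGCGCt
Ezh1: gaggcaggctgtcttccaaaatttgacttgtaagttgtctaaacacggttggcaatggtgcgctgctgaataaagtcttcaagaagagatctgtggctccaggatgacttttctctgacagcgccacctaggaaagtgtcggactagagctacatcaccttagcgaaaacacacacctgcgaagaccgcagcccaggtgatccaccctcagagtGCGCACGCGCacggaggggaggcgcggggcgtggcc
The Ezh2 window held 1 E2F, 3 CCAAT and 1 NRF1 match, and the Ezh1 window 1 NRF1 match. The E2F match lies after the start, in the 12 transcribed bases shown for Ezh2 alone. Windows of 300 bases, 250 before and 50 after the start, were found for 48 of the 59 members and for 27025 genes in all. An E2F match was present in 3 of the 48 members, Ezh2, Suz12 and Cbx3 (6.25%), and in 1.8% of all genes. NRF1 letters were present in 9 members (18.8%) and 5.19% of genes, CCAAT in 23 (47.9%) and 41.1%, the ETS letters CCGGAAG in 7 (14.6%) and 9.93%, and the CRE letters TGACGTCA in 2 (4.17%) and 2.03%. The E2F and NRF1 letters can overlap in GCGC, and no matches overlapped in the windows shown. These matches are descriptions of sequence and not binding sites.

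Eed and Jarid2 were lower in DRG than in OPC, opposite to Ezh1, and Suz12 did not pass. Eed, which binds the methylated lysine and is needed for PRC2 activity, gave 15.7, 15.5 and 17.2 CPM in DRG, 45.2, 55.1 and 35.9 in OPC and 30.2, 43.6 and 39.6 in Astrocytes. All DRG libraries were below all glial libraries, and the OPC and astrocyte ranges overlapped. Eed was 2.81-fold lower in DRG than in OPC (adjusted p = 0.000422, log2 −1.49 ± 0.22) and 2.34-fold lower in DRG than in Astrocytes (adjusted p = 0.00125, log2 −1.23 ± 0.22); its difference between OPC and Astrocytes was 0.26 (adjusted p = 0.344). Suz12, the scaffold of the complex, has 2 accessions and gave 4.196, 7.22 and 7.36 CPM in DRG, 7.18, 8.39 and 3.22 in OPC and 3.799, 5.11 and 5.47 in Astrocytes. The 3 ranges overlapped, and no comparison passed: the log2 differences were −0.0002 for DRG against OPC (adjusted p = 1), 0.39 for DRG against Astrocytes (adjusted p = 0.433) and 0.39 for OPC against Astrocytes (adjusted p = 0.452). Jarid2, which helps to bring PRC2 to chromatin, gave 0.812, 0.947 and 0.671 CPM in DRG, 4.16, 2.52 and 2.98 in OPC and 0.734, 1.09 and 1.47 in Astrocytes, with OPC above the other cell types in all libraries. Jarid2 was lower in DRG than in OPC (adjusted p = 0.00186, log2 −1.99 ± 0.39) and higher in OPC relative to Astrocytes (adjusted p = 0.00774, log2 1.56 ± 0.38), the second of which was lost without Astrocytes 1 and OPC 3 together (log2 1.22, adjusted p = 0.0511). Between DRG and Astrocytes the difference was −0.43 (adjusted p = 0.356).

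**Figure D2:**
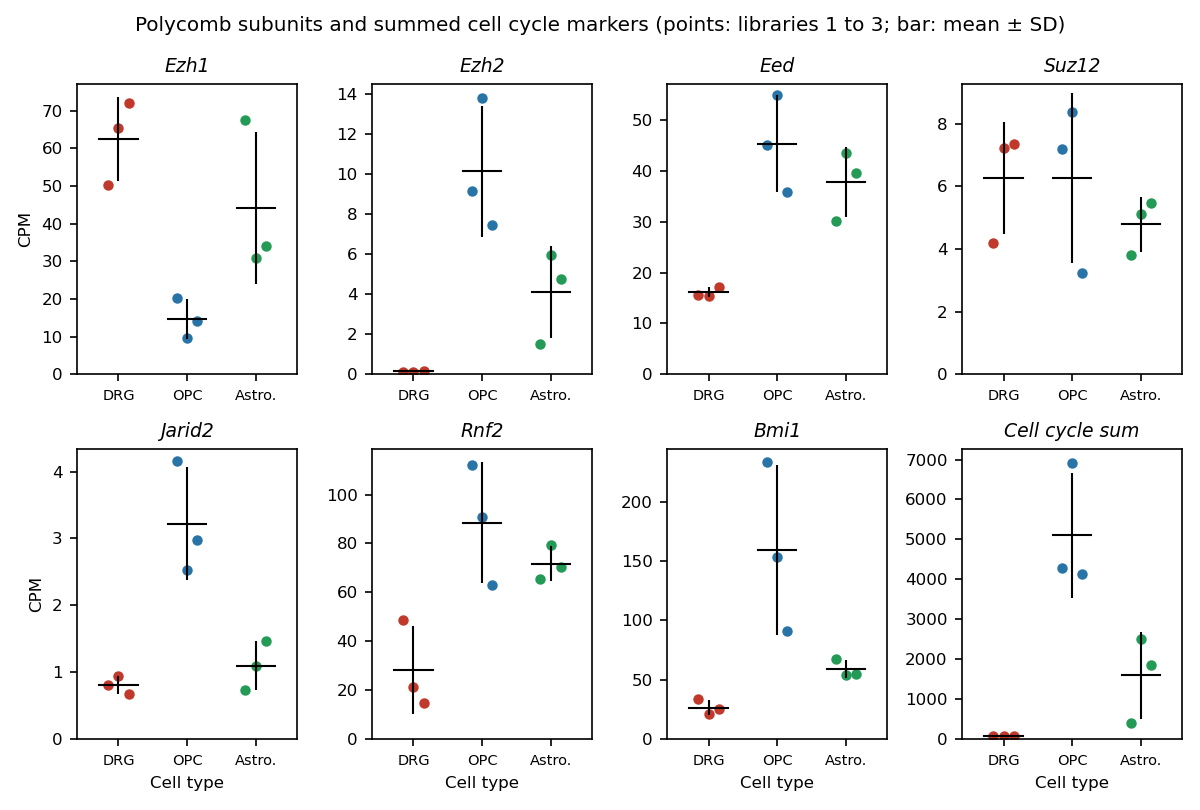
CPM of 7 Polycomb genes and the sum of 10 cell cycle genes in DRG, OPC and Astrocytes (Astro.), with 1 point per library and bars for the mean ± SD of 3 libraries. Ezh1 is highest in DRG and in Astrocytes 1, while Ezh2, Eed, Bmi1 and the cell cycle sum are lowest in the DRG libraries.

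Of 8 PRC1 genes, 1 was higher and 4 lower in DRG than in OPC (12.5% and 50%, beside 28.4% and 31.1% of all genes). In DRG against Astrocytes, 2 were higher and 2 lower (25% each, beside 27.4% and 32.7%). In OPC against Astrocytes, 3 were higher and 1 lower (37.5% and 12.5%, beside 26.3% and 25.5%). Rnf2, the main ligase for histone H2A, gave 48.8, 21.4 and 14.6 CPM in DRG, 112, 90.6 and 62.8 in OPC and 65.4, 79.5 and 70.3 in Astrocytes. DRG 1 was the highest of the DRG libraries and still below all glial ones. Rnf2 was 3.14-fold lower in DRG than in OPC (adjusted p = 0.00731, log2 −1.65 ± 0.42) and 2.54-fold lower in DRG than in Astrocytes (adjusted p = 0.0186, log2 −1.34 ± 0.41); the second call was lost without DRG 2 or without DRG 3 (log2 −1.02 to −1.17, adjusted p = 0.0509 to 0.0707). Without DRG 1 the differences were −2.30 and −1.99. Its paralogue Ring1 ranged from 16.2 to 22.9 CPM in DRG, 22.9 to 31.3 in OPC and 25.6 to 34.9 in Astrocytes and passed in no comparison. Bmi1, the PCGF subunit that stimulates the ligase, gave 33.5, 20.8 and 25.02 CPM in DRG, 234, 153 and 91.0 in OPC and 67.6, 53.7 and 55.1 in Astrocytes, and no 2 cell types overlapped. It was 6.03-fold lower in DRG than in OPC (adjusted p = 0.000201, log2 −2.59 ± 0.34) and 2.22-fold lower in DRG than in Astrocytes (adjusted p = 0.013, log2 −1.15 ± 0.33). In OPC, Bmi1 was 2.71-fold higher than in Astrocytes (adjusted p = 0.00565, log2 1.44 ± 0.33). The difference from Astrocytes was lost without DRG 2 (log2 −0.996, adjusted p = 0.0544). Pcgf2, an alternative PCGF subunit with 3 accessions, stayed between 0.246 and 0.568 CPM in all libraries and passed in no comparison.

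The CBX readers of PRC1 did not share 1 order across the cell types. Cbx2 and its neighbour Cbx8 lie side by side on chromosome 11 (chr11:119023019-119031275 and chr11:119036303-119040913), and Cbx6 and Cbx7 on chromosome 15 (chr15:79823898-79834333 and chr15:79915804-79971143). Cbx2 gave 13.4, 10.6 and 13.01 CPM in DRG, 33.1, 37.1 and 36 in OPC and 4.06, 7.53 and 6.99 in Astrocytes, with OPC highest, DRG between and Astrocytes lowest in every library. It was 2.87-fold lower in DRG than in OPC (adjusted p = 0.00107, log2 −1.52 ± 0.27) and 1.99-fold higher in DRG than in Astrocytes (adjusted p = 0.00994, log2 0.99 ± 0.27). In OPC, Cbx2 was 5.72-fold higher than in Astrocytes (adjusted p = 0.000131, log2 2.52 ± 0.28). Cbx8 gave 6.802, 5.81 and 6.27 CPM in DRG, 13.46, 12.2 and 17.8 in OPC and 9.61, 7.76 and 8.29 in Astrocytes, again highest in OPC but lowest in DRG. Cbx8 was lower in DRG than in OPC (adjusted p = 0.00258, log2 −1.20 ± 0.25; log2 −0.78 without OPC 3, adjusted p = 0.0264) and higher in OPC relative to Astrocytes (adjusted p = 0.0281, log2 0.76 ± 0.25), and the second call was lost without any 1 of Astrocytes 2, Astrocytes 3 and OPC 3 (log2 0.43 to 0.74, adjusted p = 0.081 to 0.183), and without Astrocytes 1 and OPC 3 together (log2 0.52, adjusted p = 0.139), and with RLE factors, library size alone and the compared libraries alone. Cbx6, which per kilobase had the highest level of these 4 genes in all 3 cell types, gave 258, 406 and 376 CPM in DRG, 198, 190.1 and 185 in OPC and 195, 218 and 217 in Astrocytes. It was higher in all DRG libraries, 1.82-fold against OPC (adjusted p = 0.00352, log2 0.86 ± 0.19) and 1.65-fold against Astrocytes (adjusted p = 0.00857, log2 0.72 ± 0.19).

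Cbx7 gave 9.204, 16.6 and 13.4 CPM in DRG, 6.304, 7.18 and 5.17 in OPC and 80.6, 10.6 and 15.2 in Astrocytes. Astrocytes 1 held several times the level of every other library. Cbx7 was lower in OPC relative to Astrocytes (adjusted p = 0.0146, log2 −2.51 ± 0.70), and without Astrocytes 1 the difference was −1.05 (adjusted p = 0.0259). DRG against OPC gave 1.07 (adjusted p = 0.196), and without Astrocytes 1, which contributes only to the shared spread of this comparison, 1.06 (adjusted p = 0.012). DRG against Astrocytes gave −1.44 (adjusted p = 0.0923), and without Astrocytes 1 it gave 0.01. That library also held the most microglia and fewest cell cycle transcripts of its group; their part in the Cbx7 level was not tested.

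All 3 HP1 genes were lower in DRG than in OPC and than in Astrocytes, as were 31.1% and 32.7% of all genes. Cbx3 (HP1 gamma) had the highest level per kilobase of all 37 members with 1 accession in OPC, 281 ± 105 CPM per kilobase, and in Astrocytes, 107 ± 11.3, and the fourth highest in DRG, 47.0 ± 7.48 (SD, n = 3 each). In CPM it gave 105, 81.2 and 80.2 CPM in DRG, 682, 602 and 306 in OPC and 177, 215 and 213 in Astrocytes, and no ranges overlapped. It was 5.96-fold lower in DRG than in OPC (adjusted p = 9.4e-05, log2 −2.58 ± 0.30) and 2.27-fold lower in DRG than in Astrocytes (adjusted p = 0.00568, log2 −1.18 ± 0.28). In OPC, Cbx3 was 2.63-fold higher than in Astrocytes (adjusted p = 0.00329, log2 1.39 ± 0.29). Cbx1 (HP1 beta) gave 31.4, 18.4 and 18.6 CPM in DRG, 68.7, 74.9 and 61.4 in OPC and 44.7, 54.3 and 55.04 in Astrocytes. The DRG libraries were lowest, with a 3.00-fold difference from OPC (adjusted p = 0.000455, log2 −1.58 ± 0.24) and a 2.25-fold difference from Astrocytes (adjusted p = 0.0024, log2 −1.17 ± 0.24).

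Cbx5 (HP1 alpha, chr15:103191546-103239904) has 3 accessions and gave 4.196, 4.32 and 4.52 CPM in DRG, 12.2, 18.7 and 11.9 in OPC and 8.92, 13.96 and 14.7 in Astrocytes. DRG was lowest in all libraries, 3.29-fold below OPC (adjusted p = 0.000978, log2 −1.72 ± 0.30) and 2.88-fold below Astrocytes (adjusted p = 0.00185, log2 −1.53 ± 0.30), and OPC against Astrocytes did not pass (0.19, adjusted p = 0.611). Its transcripts had opposite orders in the glial types. The long model, counted mainly over 5143 bases of 3′ untranslated sequence, gave 3.42, 3.56 and 3.95 CPM in DRG, 8.90, 16.5 and 10.2 in OPC and 3.48, 7.55 and 6.05 in Astrocytes. It was higher in OPC relative to Astrocytes (log2 1.06 ± 0.36, adjusted p = 0.0354) and lower in DRG than in OPC (log2 −1.70, adjusted p = 0.00331), and DRG against Astrocytes did not pass (log2 −0.64, adjusted p = 0.152). The short model, counted over 100 bases of 5′ untranslated sequence at chr15:103215022-103215121, gave 0.778, 0.758 and 0.568 CPM in DRG, 3.33, 2.22 and 1.73 in OPC and 5.44, 6.41 and 8.65 in Astrocytes. It was lower in OPC relative to Astrocytes (log2 −1.49 ± 0.36, adjusted p = 0.00696) and lower in DRG than in Astrocytes (log2 −3.28 ± 0.39, adjusted p = 9.62e-05). Both encode 573 coding bases. Tests per accession were added after the data had been seen, over 16010 accessions, of which 25.7% were higher and 25.2% lower in OPC than in Astrocytes, 28.4% and 30.7% in DRG than in OPC, and 27.4% and 32.6% in DRG than in Astrocytes.

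Of the 6 genes for H3K9 methylation, 4 could be tested. Trim28, Suv39h1 and Suv39h2 were lower in DRG than in OPC and higher in OPC than in Astrocytes, and Trim28 and Suv39h2 were lower in DRG than in Astrocytes. Setdb1 had the same calls against OPC, but it passed the filter through OPC alone and had to be highest there. Trim28, the corepressor that brings SETDB1 to chromatin, has 1 accession and gave 138, 120.5 and 109 CPM in DRG, 552, 554 and 597 in OPC and 195, 244 and 246 in Astrocytes. No ranges overlapped, and the differences were 4.63-fold lower in DRG than in OPC (adjusted p = 1.23e-05, log2 −2.21 ± 0.17) and 1.86-fold lower in DRG than in Astrocytes (adjusted p = 0.00135, log2 −0.90 ± 0.17). In OPC, Trim28 was 2.49-fold higher than in Astrocytes (adjusted p = 0.000269, log2 1.31 ± 0.17). Suv39h1, an enzyme of pericentric H3K9 trimethylation on chromosome X, gave 1.66, 1.64 and 2.09 CPM in DRG, 4.404, 7.51 and 7.63 in OPC and 1.62, 2.71 and 2.46 in Astrocytes. OPC was above both other types, with DRG lower than OPC (adjusted p = 0.00167, log2 −1.86 ± 0.35) and OPC higher than Astrocytes (adjusted p = 0.00578, log2 1.53 ± 0.35). The second call was lost without Astrocytes 1 and OPC 3 together (log2 1.05, adjusted p = 0.0644). DRG against Astrocytes was −0.33 (adjusted p = 0.436).

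Suv39h2, its paralogue, gave 0.135, 0.189 and 0.129 CPM in DRG, 1.297, 1.61 and 1.13 in OPC and 0.339, 0.665 and 0.498 in Astrocytes, with the DRG libraries lowest and OPC highest. It was 8.66-fold lower in DRG than in OPC (adjusted p = 0.000251, log2 −3.11 ± 0.43) and 3.22-fold lower in DRG than in Astrocytes (adjusted p = 0.00724, log2 −1.69 ± 0.42). In OPC, Suv39h2 was 2.69-fold higher than in Astrocytes (adjusted p = 0.0125, log2 1.43 ± 0.38), and this call was lost without OPC 2 (log2 1.29, adjusted p = 0.0505), and without Astrocytes 1 and OPC 3 together (log2 1.16, adjusted p = 0.0686). Setdb1, which trimethylates H3K9 at retroelements, had only 84 counts over the 9 libraries and gave 0.102, 0.105 and 0.155 CPM in DRG, 0.291, 0.488 and 0.529 in OPC and 0.0564, 0.0475 and 0.166 in Astrocytes. Because Setdb1 passed the filter on low counts through OPC alone, its fold changes are not given. Both of its calls, against DRG and against Astrocytes, were lost without Astrocytes 1 and OPC 3 together. Cell cycle sums were also highest in OPC and lowest in DRG, and their part in the order of these genes and of the HP1 genes was not tested.

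**Figure D3:**
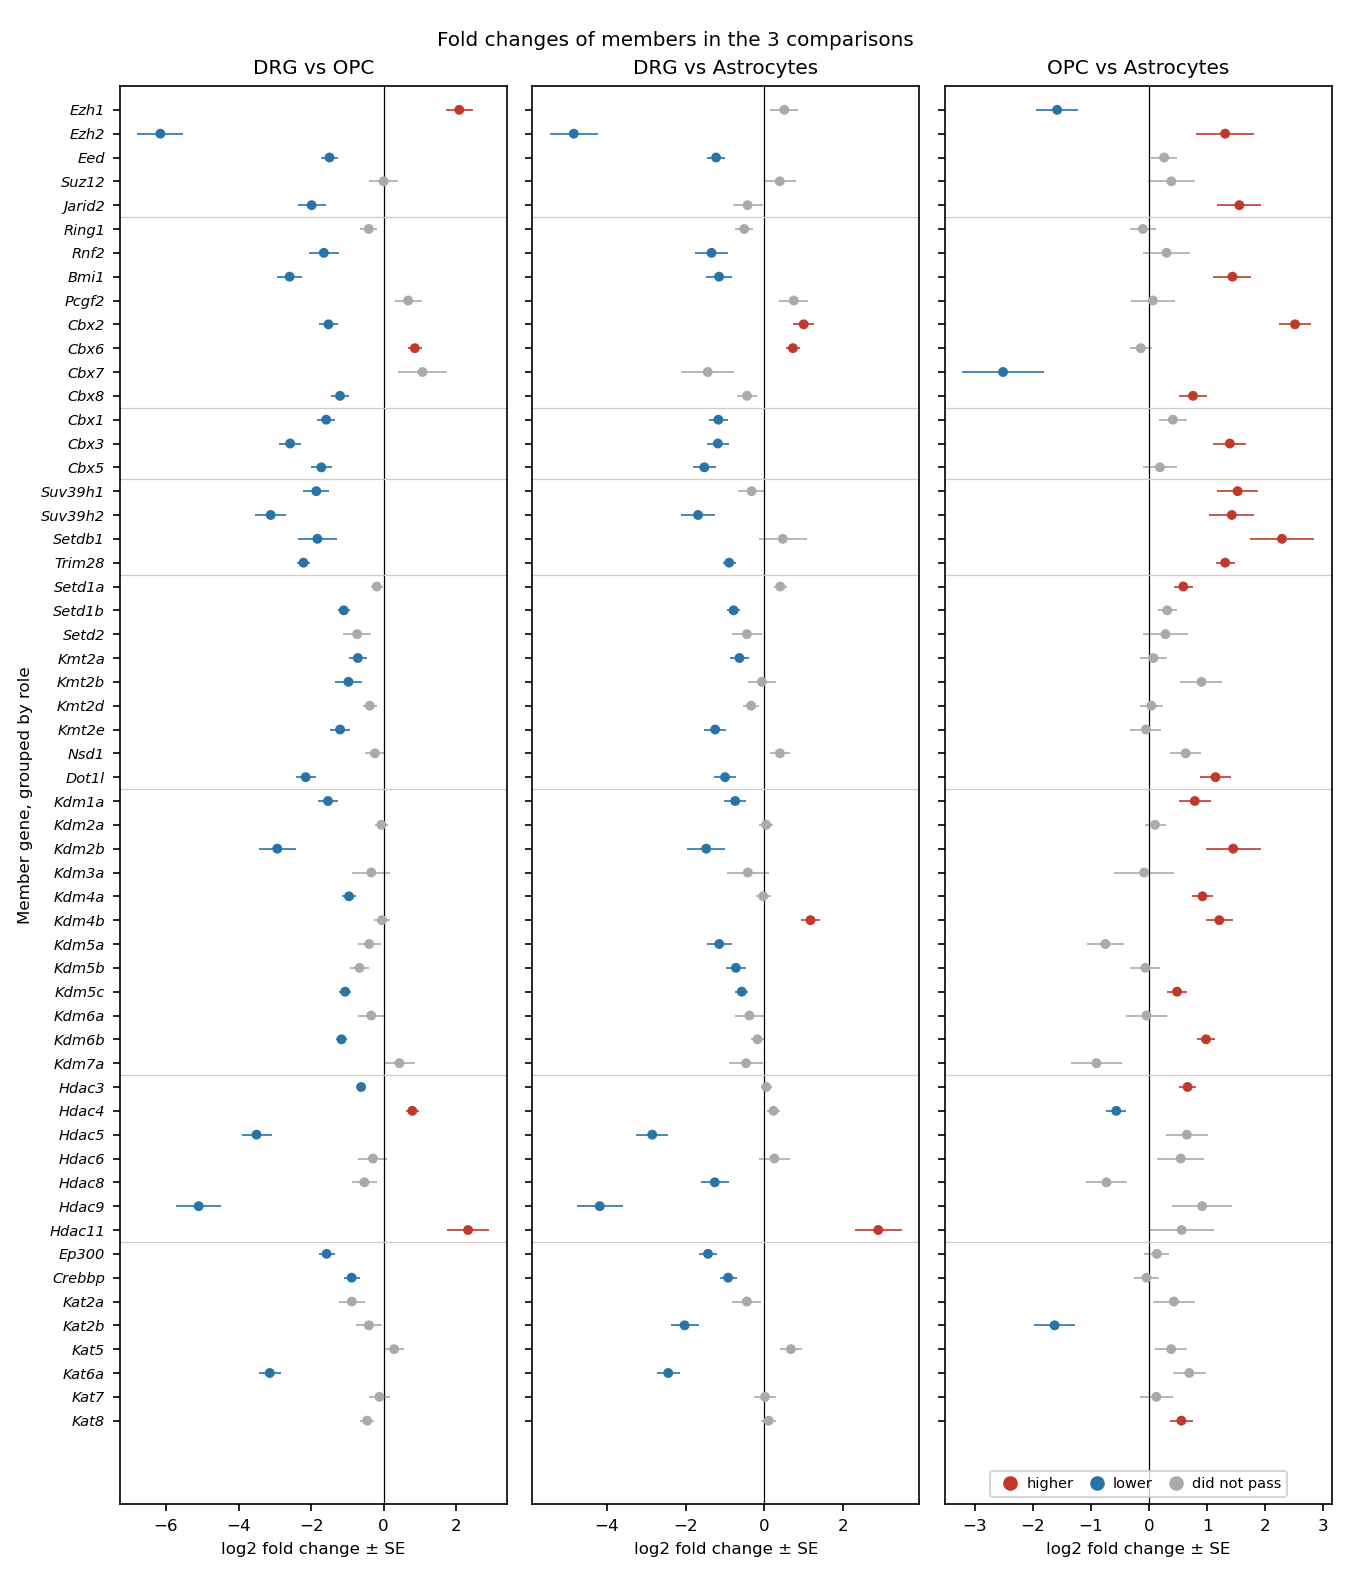
Log2 fold change ± SE of the 56 tested members for DRG vs OPC, DRG vs Astrocytes and OPC vs Astrocytes, with genes grouped by role; red points were higher and blue points lower at an adjusted p under 0.05, and grey points did not pass. In DRG vs OPC 30 points are blue and 4 red, and in OPC vs Astrocytes 20 are red and 4 blue.

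Among 9 methyltransferases of H3K4, H3K36 and H3K79, none was higher in DRG than in OPC or Astrocytes, beside 28.4% and 27.4% of all genes. In DRG, 5 were lower than in OPC (55.6%, beside 31.1% of all genes) and 4 lower than in Astrocytes (44.4%, beside 32.7%). In OPC, 2 were higher than in Astrocytes (22.2%, beside 26.3%) and none was lower (beside 25.5%). Dot1l, the H3K79 methyltransferase, gave 31.98, 24.9 and 25.97 CPM in DRG, 117, 122 and 128 in OPC and 36.2, 79.7 and 50.1 in Astrocytes. The OPC libraries were above all others, and Astrocytes 2 was the highest of its group. Dot1l was 4.43-fold lower in DRG than in OPC (adjusted p = 0.00018, log2 −2.15 ± 0.28), lower in DRG than in Astrocytes (adjusted p = 0.0101, log2 −1.002 ± 0.27; −0.65 without Astrocytes 2, adjusted p = 0.0298) and higher in OPC relative to Astrocytes (adjusted p = 0.00651, log2 1.15 ± 0.27), lost without Astrocytes 1 and OPC 3 together (log2 0.72, adjusted p = 0.0529). Kmt2e, a SET-domain protein that binds H3K4 methylation, gave 66.3, 45.7 and 47.6 CPM in DRG, 157, 134 and 75.2 in OPC and 125, 123 and 132 in Astrocytes. It was lower in every DRG library, against OPC (adjusted p = 0.00416, log2 −1.20 ± 0.27) and against Astrocytes (adjusted p = 0.00334, log2 −1.25 ± 0.27). Setd1b, an H3K4 methyltransferase, gave 34.5, 28.9 and 34.2 CPM in DRG, 72.5, 67.3 and 68.96 in OPC and 62.7, 55.4 and 49.8 in Astrocytes. Its DRG libraries lay below the others (log2 −1.10 against OPC, adjusted p = 0.00039; −0.78 against Astrocytes, adjusted p = 0.00257).

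The other called genes of this group differed by less than 2-fold. Kmt2a, an H3K4 methyltransferase of the mixed lineage leukaemia family, was lower in DRG at 110.1 ± 29.4 CPM, against 180.3 ± 34.4 in OPC and 171 ± 21.8 in Astrocytes (SD, n = 3 each), with log2 −0.71 (adjusted p = 0.0282) and −0.64 (adjusted p = 0.0437). The first call was lost without any 1 of DRG 1, DRG 2, OPC 1, OPC 2 and OPC 3 (log2 −0.51 to −0.77, adjusted p = 0.0555 to 0.0831), and without Astrocytes 1 and OPC 3 together (log2 −0.61, adjusted p = 0.0546), and with RLE factors and DESeq2. The second was lost without any 1 of Astrocytes 2, Astrocytes 3, DRG 1, DRG 2, OPC 1, OPC 2 and OPC 3 (log2 −0.43 to −0.68, adjusted p = 0.0535 to 0.128), and without Astrocytes 1 and OPC 3 together (log2 −0.61, adjusted p = 0.0536), and with RLE factors, no filter and the compared libraries alone. Kmt2b, its close paralogue with 2 accessions, ranged over 0.812 to 1.39 CPM in DRG, 1.65 to 2.65 in OPC and 0.959 to 1.38 in Astrocytes. Kmt2b was lower in DRG than in OPC (adjusted p = 0.0432, log2 −0.97 ± 0.36), lost without any 1 of Astrocytes 2, Astrocytes 3, DRG 1, DRG 2, DRG 3, OPC 2 and OPC 3 (log2 −0.61 to −1.12, adjusted p = 0.0592 to 0.239), and without Astrocytes 1 and OPC 3 together (log2 −0.60, adjusted p = 0.22), and with RLE factors, no filter, the compared libraries alone and the length trend removed. Setd1a, the paralogue of Setd1b, ranged over 73.1 to 93.6 CPM in DRG, 90.95 to 98.9 in OPC and 55.99 to 73.2 in Astrocytes. It was higher in OPC relative to Astrocytes (adjusted p = 0.0149, log2 0.59 ± 0.17), lost without Astrocytes 3 or without OPC 3 (log2 0.47 to 0.57, adjusted p = 0.0564 to 0.0578), and without Astrocytes 1 and OPC 3 together (log2 0.39, adjusted p = 0.124), and with the compared libraries alone. Setd2, the H3K36 trimethylase, gave 110.2, 84.6 and 85.9 CPM in DRG, 211, 193 and 61.8 in OPC and 113, 142 and 127 in Astrocytes and passed in no comparison. Its low value in OPC 3 is a log2 ratio of −1.70 to OPC 1 and 2, in the library with fewer counts from long transcripts. Kmt2d, an H3K4 methyltransferase of enhancers, ranged over 51.2 to 81.3 CPM in DRG, 81.8 to 96.6 in OPC and 77.5 to 98.8 in Astrocytes. Nsd1, which dimethylates H3K36, ranged over 177 to 186 CPM in DRG, 140.5 to 258 in OPC and 102 to 169 in Astrocytes, and neither gene passed in any comparison.

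Demethylases were lower in DRG or did not pass, except Kdm4b. Of 12 members, 0 were higher and 5 lower in DRG than in OPC (0% and 41.7%, beside 28.4% and 31.1% of all genes). In DRG against Astrocytes, 1 was higher and 5 lower (8.3% and 41.7%, beside 27.4% and 32.7%). In OPC against Astrocytes, 6 were higher and 0 lower (50% and 0%, beside 26.3% and 25.5%). Kdm1a (LSD1), which removes H3K4 mono- and dimethylation, gave 124, 61.7 and 60.3 CPM in DRG, 277, 209 and 225 in OPC and 128, 149.8 and 134 in Astrocytes. DRG 1 was the highest of its group and nearly reached Astrocytes 1. Kdm1a was 2.90-fold lower in DRG than in OPC (adjusted p = 0.00142, log2 −1.53 ± 0.28), lower in DRG than in Astrocytes (adjusted p = 0.0437, log2 −0.74 ± 0.28; −1.16 without DRG 1) and higher in OPC relative to Astrocytes (adjusted p = 0.0399, log2 0.79 ± 0.28). The difference of DRG from Astrocytes was lost without any 1 of Astrocytes 1, Astrocytes 2, Astrocytes 3, DRG 2, DRG 3, OPC 1, OPC 2 and OPC 3 (log2 −0.56 to −0.80, adjusted p = 0.0507 to 0.155), and without Astrocytes 1 and OPC 3 together (log2 −0.70, adjusted p = 0.0985), and with RLE factors, DESeq2, the compared libraries alone and the length trend removed. The difference of OPC from Astrocytes was lost without any 1 of Astrocytes 1, Astrocytes 2, Astrocytes 3, OPC 1, OPC 2 and OPC 3 (log2 0.67 to 0.88, adjusted p = 0.0564 to 0.124), and without Astrocytes 1 and OPC 3 together (log2 0.62, adjusted p = 0.208), and with RLE factors, library size alone and DESeq2.

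Kdm2b, an H3K36 demethylase that brings a variant PRC1 to CpG islands, has 2 accessions and gave 0.846, 0.526 and 0.568 CPM in DRG, 2.28, 5.66 and 6.83 in OPC and 1.15, 1.99 and 2.27 in Astrocytes. DRG was lowest in all libraries, and OPC 1 lay close to the astrocyte range. It was 7.63-fold lower in DRG than in OPC (adjusted p = 0.000925, log2 −2.93 ± 0.51), lower in DRG than in Astrocytes (adjusted p = 0.0255, log2 −1.48 ± 0.49) and higher in OPC relative to Astrocytes (adjusted p = 0.0286, log2 1.45 ± 0.47). Its paralogue Kdm2a ranged over 144 to 179 CPM in DRG, 141 to 206 in OPC and 149 to 173 in Astrocytes and passed in no comparison. For Kdm2b, the difference of DRG from Astrocytes was lost without any 1 of Astrocytes 2, Astrocytes 3, DRG 2 and DRG 3 (log2 −1.29 to −1.40, adjusted p = 0.0603 to 0.0889), and with the top accession. That of OPC from Astrocytes was lost without any 1 of Astrocytes 1, Astrocytes 2, OPC 2 and OPC 3 (log2 0.996 to 1.53, adjusted p = 0.0558 to 0.144), and without Astrocytes 1 and OPC 3 together (log2 0.75, adjusted p = 0.277), and with the top accession and the compared libraries alone.

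Kdm4b, an H3K9 demethylase, gave 121, 125 and 92.8 CPM in DRG, 148, 83.6 and 117 in OPC and 55.4, 44.4 and 50.9 in Astrocytes, with Astrocytes lowest in every library, and was 2.25-fold higher in DRG than in Astrocytes (adjusted p = 0.00202, log2 1.17 ± 0.23). In OPC, Kdm4b was 2.32-fold higher than in Astrocytes (adjusted p = 0.00228, log2 1.21 ± 0.23). Its paralogue Kdm4a averaged 36.6 ± 4.25 CPM in DRG, 70.9 ± 14.1 in OPC and 37.4 ± 1.02 in Astrocytes (SD, n = 3 each), and was lower in DRG than in OPC (adjusted p = 0.00201, log2 −0.96 ± 0.19) and higher in OPC relative to Astrocytes (adjusted p = 0.00326, log2 0.92 ± 0.19). Kdm3a and Kdm7a also act on H3K9, and neither passed in any comparison. Kdm3a ranged over 0.203 to 0.674 CPM in DRG, 0.385 to 0.894 in OPC and 0.564 to 0.926 in Astrocytes. Kdm7a ranged over 42.6 to 68.6 CPM in DRG, 17.8 to 68.9 in OPC and 60.8 to 101 in Astrocytes, with OPC 3 lowest.

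Among H3K4 demethylases, Kdm5c on chromosome X gave 133, 129.9 and 144 CPM in DRG, 333, 261 and 255 in OPC and 184, 227 and 195 in Astrocytes. No ranges overlapped between DRG and the glial types. It was 2.09-fold lower in DRG than in OPC (adjusted p = 0.000554, log2 −1.06 ± 0.17), lower in DRG than in Astrocytes (adjusted p = 0.0139, log2 −0.58 ± 0.17) and higher in OPC relative to Astrocytes (adjusted p = 0.035, log2 0.48 ± 0.17). The difference of DRG from Astrocytes was lost without Astrocytes 2 or without DRG 2 (log2 −0.49 to −0.53, adjusted p = 0.054 to 0.0578). For OPC against Astrocytes the call was lost without any 1 of Astrocytes 1, Astrocytes 3, DRG 2, OPC 1 and OPC 3 (log2 0.36 to 0.49, adjusted p = 0.0516 to 0.11), and without Astrocytes 1 and OPC 3 together (log2 0.33, adjusted p = 0.17), and with RLE factors, library size alone and the compared libraries alone. Kdm5a gave 59.2, 62.1 and 65.4 CPM in DRG, 112, 94.1 and 39.9 in OPC and 139.9, 134 and 141 in Astrocytes, lower in DRG than in Astrocytes (adjusted p = 0.0117, log2 −1.15 ± 0.32) and with OPC 3 below every other library. Kdm5b, another of these enzymes, ranged over 49.7 to 60.4 CPM in DRG, 62.3 to 131 in OPC and 89.3 to 96.6 in Astrocytes. It was lower in DRG than in Astrocytes (adjusted p = 0.0362, log2 −0.73 ± 0.26), lost without any 1 of Astrocytes 1, Astrocytes 2, Astrocytes 3, DRG 1, DRG 2, DRG 3 and OPC 3 (log2 −0.63 to −0.77, adjusted p = 0.0572 to 0.117), and without Astrocytes 1 and OPC 3 together (log2 −0.63, adjusted p = 0.09), and with the length trend removed.

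Kdm6a and Kdm6b remove the methyl mark of PRC2 from H3K27. Kdm6b gave 33.9, 38.8 and 37.97 CPM in DRG, 85.6, 72.9 and 89.2 in OPC and 41.9, 42.2 and 41.1 in Astrocytes, with OPC highest, and was 2.24-fold lower in DRG than in OPC (adjusted p = 0.000212, log2 −1.16 ± 0.15). In OPC, Kdm6b was 1.98-fold higher than in Astrocytes (adjusted p = 0.000812, log2 0.98 ± 0.15). Kdm6a, on chromosome X, gave 38.8, 33.5 and 38.1 CPM in DRG, 69.3, 49.7 and 20.8 in OPC and 47.8, 52.7 and 43.3 in Astrocytes. OPC spanned the ranges of both other types, and the differences were −0.34 for DRG against OPC, −0.38 for DRG against Astrocytes and −0.041 for OPC against Astrocytes, with adjusted p = 0.434, 0.383 and 0.935. Kdm5c and Kdm6a are known to escape X inactivation in mice. Xist, the RNA of the inactive X, gave 110.3, 97.1 and 134 CPM in DRG, 600.3, 231 and 0 in OPC and 184, 243 and 121 in Astrocytes, and the 4 Y-linked genes measured summed to 62.4 to 80.2 CPM in DRG, 77.0 to 168 in OPC and 145 to 169.5 in Astrocytes. OPC 3 was thus the library without Xist counts and with the lowest Kdm6a. Its Y-linked sum was also the lowest of its group, at 77.0 CPM against 168 in OPC 1 and 152 in OPC 2. The part of donor sex, and of the loss of long transcripts in that library, was not tested.

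Of 7 deacetylases tested, 2 were higher and 3 lower in DRG than in OPC, 1 higher and 3 lower in DRG than in Astrocytes, and 1 higher and 1 lower in OPC than in Astrocytes. In DRG against OPC these are 28.6% and 42.9%, close to the 28.4% and 31.1% of all genes. In DRG against Astrocytes they are 14.3% and 42.9%, beside 27.4% and 32.7% of all genes. In OPC against Astrocytes they are 14.3% and 14.3%, beside 26.3% and 25.5%. Hdac11, the only class IV deacetylase (chr6:91156670-91174692), gave 174, 176 and 159 CPM in DRG, 42.3, 24.1 and 35.2 in OPC and 47.7, 7.599 and 13.4 in Astrocytes. All DRG libraries were several times above all others. It was 5.01-fold higher in DRG than in OPC (adjusted p = 0.00731, log2 2.33 ± 0.59) and 7.41-fold higher in DRG than in Astrocytes (adjusted p = 0.00263, log2 2.89 ± 0.60; log2 4.01 without Astrocytes 1). OPC against Astrocytes was 0.56 (adjusted p = 0.429), and without Astrocytes 1, the astrocyte library with the highest level, 1.69 (adjusted p = 0.00249). Per kilobase, Hdac11 ranked first of 37 members in DRG (64.1 ± 3.49 CPM per kilobase), and 22 and 27 in OPC (12.8 ± 3.46) and Astrocytes (8.64 ± 8.17; SD, n = 3 each).

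Counts of class IIa deacetylases, which shuttle between nucleus and cytoplasm and bind MEF2 factors, went in different directions. Hdac9 (chr12:34047580-34917095) gave 2.17, 0.484 and 0.594 CPM in DRG, 40.2, 38.3 and 30.7 in OPC and 27.3, 13.3 and 17.2 in Astrocytes. DRG was lowest by a wide margin, with DRG 1 the highest of its group. It was 34.2-fold lower in DRG than in OPC (adjusted p = 0.000119, log2 −5.10 ± 0.61) and 18.1-fold lower in DRG than in Astrocytes (adjusted p = 0.000299, log2 −4.18 ± 0.59), and without DRG 1 the log2 differences were −6.07 and −5.15. OPC against Astrocytes was 0.92 (adjusted p = 0.163). The 2 accessions separate a long protein of 3201 coding bases, which holds the deacetylase domain, from a short one of 1764 coding bases, which ends before it. An exon of 120 bases in the stretch found only in the long form, at chr12:34215421-34215540 (GRCm38, minus strand, GENCODE vM21), is shown in capitals with 12 neighbouring bases of the transcript on each side.
Hdac9 long form, exon of 120 bases: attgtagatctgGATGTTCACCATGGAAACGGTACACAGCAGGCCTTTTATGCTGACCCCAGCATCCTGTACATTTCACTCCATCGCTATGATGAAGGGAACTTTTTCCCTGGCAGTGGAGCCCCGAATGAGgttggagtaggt
The long form gave 1.15, 0.316 and 0.361 CPM in DRG, 15.5, 15.3 and 14.1 in OPC and 8.97, 5.08 and 6.97 in Astrocytes. The short form gave 1.02, 0.168 and 0.232 CPM in DRG, 24.8, 23.0 and 16.5 in OPC and 18.4, 8.26 and 10.2 in Astrocytes. Both were lower in DRG: the long form at log2 −4.64 against OPC (adjusted p = 9.44e-05) and −3.55 against Astrocytes (adjusted p = 0.000347), and the short form at −5.55 against OPC (adjusted p = 0.000159) and −4.75 against Astrocytes (adjusted p = 0.000328).

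Hdac5 has 5 accessions, of which only 2 had counts, 1 of them with no bases of its own in GENCODE, and gave 0.4399, 0.421 and 0.465 CPM in DRG, 2.68, 5.54 and 6.91 in OPC and 3.08, 3.37 and 3.15 in Astrocytes. The DRG libraries were tightly grouped below all others. It was 11.3-fold lower in DRG than in OPC (adjusted p = 0.000106, log2 −3.50 ± 0.41) and 7.21-fold lower in DRG than in Astrocytes (adjusted p = 0.000309, log2 −2.85 ± 0.40). Hdac4, by contrast, gave 42.1, 46.1 and 44.6 CPM in DRG, 25.6, 25.2 and 25.96 in OPC and 41.3, 41.1 and 30.99 in Astrocytes. It was 1.73-fold higher in DRG than in OPC (adjusted p = 0.00384, log2 0.79 ± 0.18) and lower in OPC relative to Astrocytes (adjusted p = 0.024, log2 −0.56 ± 0.18), lost without any 1 of Astrocytes 1, Astrocytes 2, OPC 1 and OPC 2 (log2 −0.49 to −0.55, adjusted p = 0.0539 to 0.0799), and with the length trend removed; DRG against Astrocytes was 0.23 (adjusted p = 0.285). Hdac4 was counted over its whole transcript, unlike Hdac5 and Hdac9, whose counts may also reflect isoform use. Whether these genes differ from each other in their response was not tested.

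Of the class I genes, Hdac3, the enzyme of the NCoR and SMRT corepressors, averaged 126 ± 5.27 CPM in DRG, 194 ± 13.7 in OPC and 122 ± 8.23 in Astrocytes (SD, n = 3 each). It was lower in DRG than in OPC (adjusted p = 0.00402, log2 −0.62 ± 0.14), lost without OPC 3 (log2 −0.32, adjusted p = 0.0784), and without Astrocytes 1 and OPC 3 together (log2 −0.31, adjusted p = 0.0765), and higher in OPC relative to Astrocytes (adjusted p = 0.00363, log2 0.67 ± 0.14). Hdac8, on chromosome X, gave 15.1, 13.3 and 12.99 CPM in DRG, 22.0, 17.1 and 20.6 in OPC and 52.2, 17.7 and 29.1 in Astrocytes and was lower in DRG than in Astrocytes (adjusted p = 0.0128, log2 −1.26 ± 0.36). Without Astrocytes 1, the highest library, this was −0.77 (adjusted p = 0.033), and it was lost without Astrocytes 1 and OPC 3 together (log2 −0.67, adjusted p = 0.0572). Hdac6, a mostly cytoplasmic deacetylase that acts on tubulin, ranged over 0.749 to 0.905 CPM in DRG, 0.866 to 1.28 in OPC and 0.395 to 0.912 in Astrocytes and passed in no comparison.

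**Figure D4:**
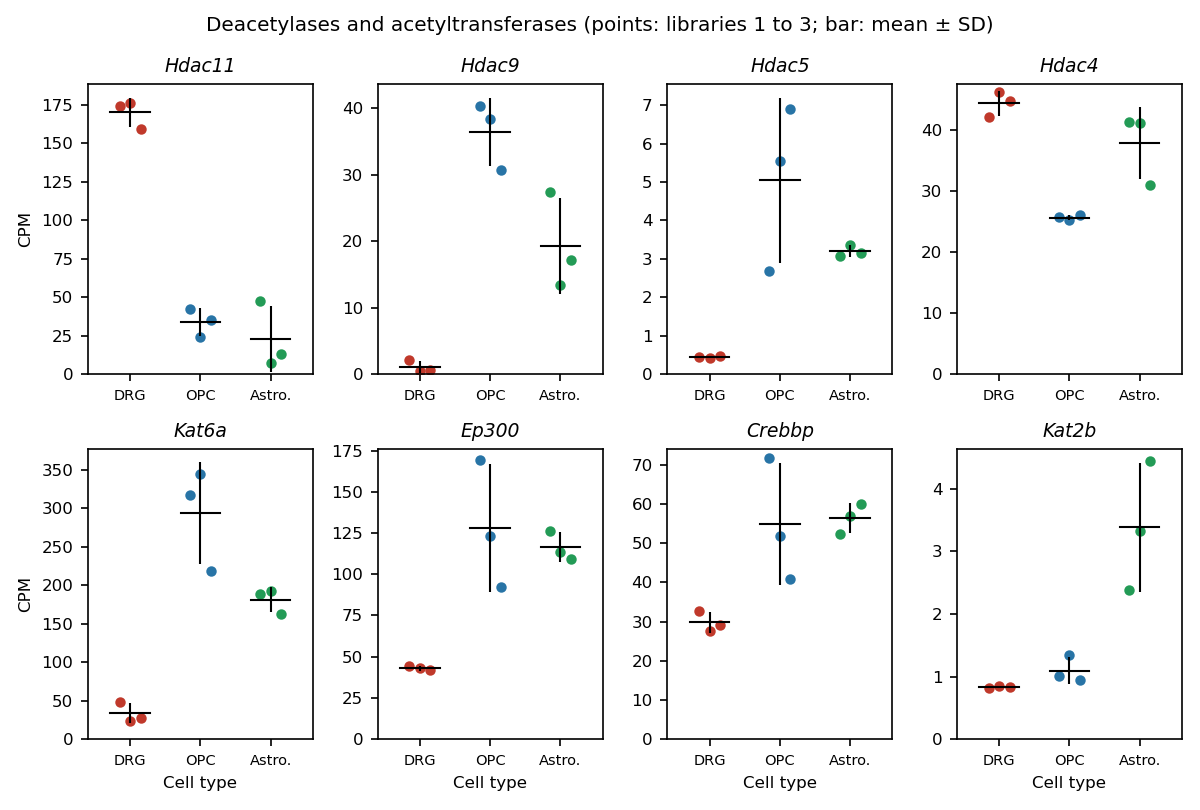
CPM of 4 deacetylases (upper row) and 4 acetyltransferases (lower row) in DRG, OPC and Astrocytes (Astro.), with 1 point per library and bars for the mean ± SD of 3 libraries. Hdac11 and Hdac4 are highest in DRG, and Hdac9, Hdac5, Kat6a, Ep300 and Crebbp are lowest there.

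No acetyltransferase of 8 was higher in DRG, beside 28.4% of all genes against OPC and 27.4% against Astrocytes. In DRG, 3 were lower than in OPC (37.5%, beside 31.1% of all genes) and 4 lower than in Astrocytes (50%, beside 32.7%). In OPC against Astrocytes, 1 was higher and 1 lower (12.5% each, beside 26.3% and 25.5%). Kat6a (MOZ), a histone H3 acetyltransferase that acts with BRPF proteins, gave 48.2, 23.98 and 27.8 CPM in DRG, 317, 345 and 219 in OPC and 189, 192 and 163 in Astrocytes. No ranges overlapped. It was 8.81-fold lower in DRG than in OPC (adjusted p = 3.49e-05, log2 −3.14 ± 0.30) and 5.44-fold lower in DRG than in Astrocytes (adjusted p = 0.000118, log2 −2.44 ± 0.29); OPC against Astrocytes was not called (adjusted p = 0.0634). Ep300 (p300), which acetylates H3K27 at enhancers, gave 44.6, 43.1 and 41.6 CPM in DRG, 169, 123 and 92.3 in OPC and 127, 114 and 109 in Astrocytes. It was 2.97-fold lower in DRG than in OPC (adjusted p = 0.000278, log2 −1.57 ± 0.22) and 2.70-fold lower in DRG than in Astrocytes (adjusted p = 0.000465, log2 −1.43 ± 0.22), with the 2 glial ranges overlapping. Its paralogue Crebbp (CBP) was lower in DRG as well, at 29.8 ± 2.65 CPM against 54.9 ± 15.6 in OPC and 56.5 ± 3.79 in Astrocytes (SD, n = 3 each; log2 −0.88, adjusted p = 0.00671, and −0.92, adjusted p = 0.00524). Kat2b (PCAF), counted on an accession with no bases of its own in GENCODE, gave 0.812, 0.842 and 0.826 CPM in DRG, 1.01, 1.34 and 0.938 in OPC and 2.39, 3.32 and 4.45 in Astrocytes, highest in every astrocyte library, and was 4.08-fold lower in DRG than in Astrocytes (adjusted p = 0.000996, log2 −2.03 ± 0.35). In OPC, Kat2b was 3.08-fold lower than in Astrocytes (adjusted p = 0.00404, log2 −1.62 ± 0.35).

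Kat8 (MOF), the H4K16 acetyltransferase, ranged over 25.4 to 27.5 CPM in DRG, 33.4 to 41.3 in OPC and 20.7 to 28.4 in Astrocytes. It was higher in OPC relative to Astrocytes (adjusted p = 0.0346, log2 0.56 ± 0.19), lost without any 1 of Astrocytes 2, Astrocytes 3, DRG 2, DRG 3, OPC 1, OPC 2 and OPC 3 (log2 0.31 to 0.63, adjusted p = 0.05 to 0.23), and without Astrocytes 1 and OPC 3 together (log2 0.41, adjusted p = 0.127), and with RLE factors, library size alone, no filter and the compared libraries alone. Kat2a (GCN5), the paralogue of Kat2b, ranged over 0.508 to 0.968 CPM in DRG, 1.38 to 1.68 in OPC and 0.9498 to 1.35 in Astrocytes. Kat7 (HBO1) ranged over 5.82 to 8.24 CPM in DRG, 6.01 to 9.38 in OPC and 5.79 to 8.21 in Astrocytes. Kat2a, Kat5 and Kat7 passed in no comparison as summed genes. Kat5 (TIP60, chr19:5603014-5611556) gave 6.497, 10.7 and 9.55 CPM in DRG, 6.24, 7.04 and 8.66 in OPC and 5.25, 5.53 and 6.05 in Astrocytes, with differences of 0.29 for DRG against OPC, 0.67 for DRG against Astrocytes and 0.38 for OPC against Astrocytes (adjusted p = 0.397, 0.065 and 0.284). Of its 5 accessions, 3 had counts. The most abundant is a coding model counted over 347 bases of its own, among them an exon of 156 coding bases at chr19:5608802-5608957 (GRCm38, minus strand). The exon is printed from GENCODE vM21 because it is the coding part of those bases; capitals mark it, with 12 neighbouring bases of the transcript on each side.
Kat5 accession 4, exon of 156 bases: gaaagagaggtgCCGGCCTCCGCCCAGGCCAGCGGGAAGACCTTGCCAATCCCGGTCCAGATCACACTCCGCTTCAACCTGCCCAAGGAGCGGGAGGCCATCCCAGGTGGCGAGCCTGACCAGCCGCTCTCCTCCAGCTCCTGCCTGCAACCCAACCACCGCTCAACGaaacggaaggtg
This model gave 3.49, 5.64 and 5.45 CPM in DRG, 4.92, 5.66 and 7.72 in OPC and 3.93, 4.11 and 4.53 in Astrocytes, and it passed in no comparison (adjusted p = 0.388 for DRG against OPC, 0.572 for DRG against Astrocytes and 0.177 for OPC against Astrocytes). The non-coding model, counted over 251 bases at its 5′ end, gave 2.91, 4.80 and 3.82 CPM in DRG, 0.514, 0.611 and 0.577 in OPC and 0.865, 0.879 and 0.912 in Astrocytes. All 3 DRG libraries were above all others. It was higher in DRG than in OPC (log2 2.76 ± 0.33, adjusted p = 0.000116) and than in Astrocytes (log2 2.12 ± 0.32, adjusted p = 0.000457). A further coding model, with 186 counts in all, was lower in DRG than in OPC (log2 −1.47 ± 0.50, adjusted p = 0.0289).

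**Figure D5:**
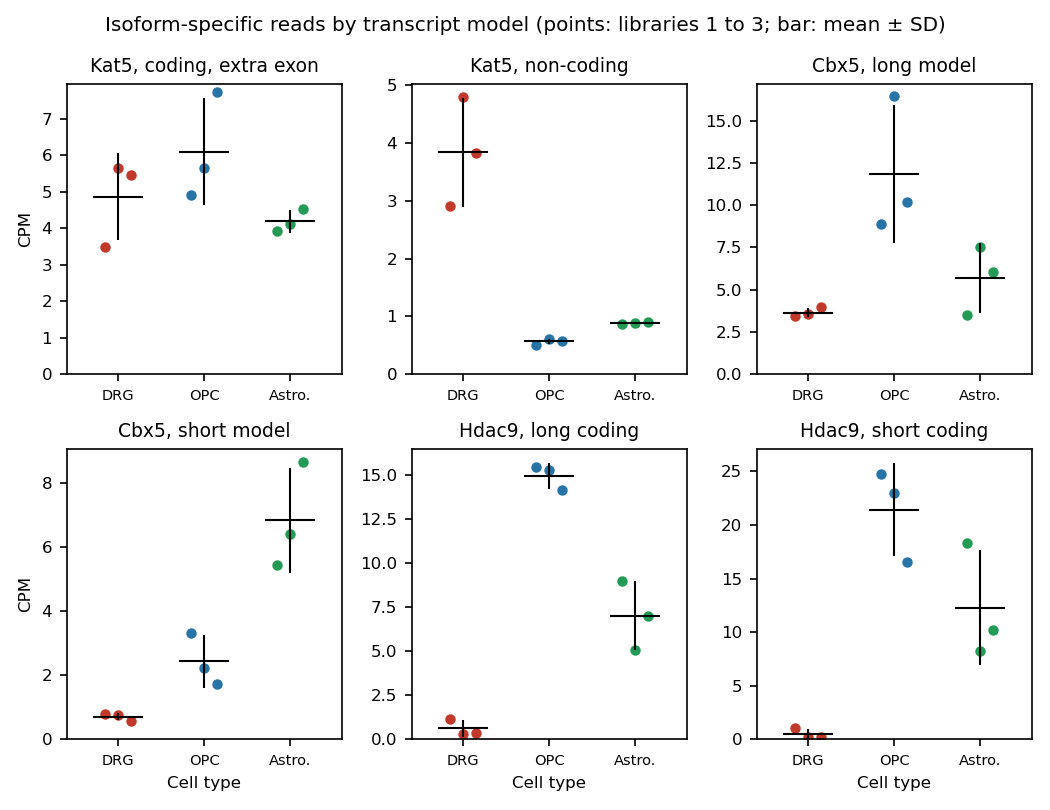
CPM of isoform-specific reads for 2 transcript models each of Kat5, Cbx5 and Hdac9 in DRG, OPC and Astrocytes (Astro.), with 1 point per library and bars for the mean ± SD of 3 libraries. The non-coding Kat5 model is highest in DRG, the Cbx5 models are highest in different glial types, and both Hdac9 models are lowest in DRG.

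Genes of the same complexes that are not among the 59 were given by 11 further lists of 117 genes, of which 111 were tested. Of these, 10 were higher and 54 lower in DRG than in OPC (9% and 48.6%, beside 28.4% and 31.1% of all genes). In DRG against Astrocytes 23 were higher and 29 lower (20.7% and 26.1%, both below the 27.4% and 32.7% of all genes), and in OPC against Astrocytes 40 were higher and 6 lower (36% and 5.4%, beside 26.3% and 25.5%). The median log2 fold change was −0.65 for DRG against OPC, 0.01 for DRG against Astrocytes and 0.57 for OPC against Astrocytes. By list, the genes higher and lower in DRG than in OPC were 1 and 4 of 7 for PRC2 accessory subunits, 2 and 3 of 11 for other PRC1 subunits, 1 and 6 of 15 for other lysine methyltransferases and 0 and 4 of 7 for COMPASS core subunits. They were 1 and 7 of 11 for other demethylases, 1 and 2 of 7 for other deacetylases and sirtuins and 1 and 2 of 10 for deacetylase corepressors. Of the remaining lists they were 1 and 11 of 15 for other acetyltransferases and partners, 0 and 8 of 11 for acetyl-lysine readers, 1 and 2 of 8 for the H2A deubiquitinase PR-DUB and 1 and 5 of 9 for arginine methyltransferases.

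Single genes of these lists had larger differences than most members. L3mbtl1, a reader of methylated histone tails, gave 19.3, 18.3 and 17.9 CPM in DRG, 0.224, 0.244 and 0.0963 in OPC and 0.113, 0.0712 and 0.166 in Astrocytes. It had 2133 counts in DRG, 26 in OPC and 15 in Astrocytes. It passed the filter on low counts through DRG alone, so it had to be highest there and its fold changes are not given. Phf19, an accessory subunit of PRC2, gave 1.46, 1.77 and 1.01 CPM in DRG, 39.3, 61.2 and 49.3 in OPC and 22.1, 42.8 and 32.8 in Astrocytes and was lower in DRG than in OPC (adjusted p = 8.85e-06, log2 −5.14 ± 0.37), as Ezh2 was. Prmt8, an arginine methyltransferase of neurons, gave 52.5, 92.7 and 54.7 CPM in DRG, 3.38, 3.18 and 5.08 in OPC and 0.0752, 1.85 and 1.82 in Astrocytes and was higher in DRG than in Astrocytes (adjusted p = 0.000553, log2 5.75 ± 0.90). Asxl3, a cofactor of the BAP1 deubiquitinase, gave 21.2, 17.7 and 15.3 CPM in DRG, 27.7, 25.6 and 13.4 in OPC and 0.0752, 0.855 and 0.829 in Astrocytes, and Rcor2, a corepressor partner of KDM1A, gave 49.98, 48.9 and 36.8 CPM in DRG, 77.9, 42.7 and 47.6 in OPC and 1.37, 1.61 and 1.71 in Astrocytes. All OPC libraries were far above all astrocyte libraries, and both genes were higher in OPC relative to Astrocytes (adjusted p = 0.000475, log2 5.26 ± 0.75 for Asxl3; adjusted p = 7.87e-06, log2 5.16 ± 0.31 for Rcor2).

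Levels can be compared between genes only per length and only for the 37 members with 1 accession. In DRG the highest were Hdac11, Hdac3 (62.1 ± 2.59 CPM per kilobase) and Cbx6 (59.7 ± 13.45). In OPC, Cbx3 was followed by Trim28 (175 ± 7.77) and Hdac3 (95.5 ± 6.73), and in Astrocytes Cbx3 was followed by Trim28 (70.4 ± 8.83) and Hdac3 (60.2 ± 4.05; SD, n = 3 each). The SD ranges overlapped for Hdac11, Hdac3 and Cbx6 in DRG and for Trim28 and Hdac3 in Astrocytes. The lowest per kilobase were Cbx8 in DRG (1.76 ± 0.138), Cbx7 in OPC (2.15 ± 0.348) and Cbx2 in Astrocytes (1.63 ± 0.490). Ezh1 ranked 12 of 37 in DRG, 35 in OPC and 25 in Astrocytes.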

How the data were processed

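RNA of 9 mouse cultures (3 each of DRG, OPC and Astrocytes) was made into libraries with a stranded mRNA kit, according to the labels. Reads were aligned to mm10 with TopHat2 and counted with HTSeq, per the submitters' processing notes; versions, counting mode and strand setting are not stated. Each deposited file holds the authors' raw counts per RefSeq transcript, 33787 accessions and 5 rows of unassigned reads, which took 37.1 to 46.9% of reads (ambiguous reads alone 22.0 to 24.7%) and were left out of library sizes. Strand use is unknown, so reads of a gene and an antisense partner cannot be told apart.

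Gene names came from RefSeq, GRCm38.p6 (32417 accessions), and GENCODE vM21 (187); 1183 stayed unnamed. Counts were summed per gene (25085 genes, 20313 with 1 accession). Main test: edgeR 4.0.16 quasi-likelihood F-test in R 4.3.3, all 9 libraries, 1 coefficient per cell type, 6 residual degrees of freedom, TMM factors, filterByExpr with minimum count 10, Benjamini-Hochberg over 14850 genes, threshold 0.05. Each p of a gene is adjusted in this way. CPM use TMM-scaled library sizes. The Ezh1 to Ezh2 ratio was planned per length but taken from counts, with 0.5 added to each, because Ezh2 was counted over isoform-specific bases alone; a fixed length would leave the differences between cell types unchanged.

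Alternatives were RLE factors, library size alone, DESeq2 1.42.0, no filter, the top accession per gene, the compared libraries alone, the replicate block, removal of the length trend, each library left out, Astrocytes 1 and OPC 3 left out together, and a 2-fold minimum. Tests per accession were added after the data had been seen. The fit was tested on simulated counts. Members, lists and rules were chosen with earlier results of these data known. Members with a called difference of at least 2-fold, up to 25 per comparison, and 11 chosen genes are given by library, the rest by range or count; Setd1b was added after its values were seen. Of the further lists, the 2 called genes with the largest change per comparison are named.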

Additional observations from a re-analysis of the deposited data

How the results depend on the processing

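The 87 called differences of single members were each recomputed under 18 other settings. For 61 of them direction and call were unchanged under all 18, none was reversed, and 26 lost the call under at least 1. By setting, the calls lost were 9 with RLE factors, 5 with library size alone, 3 with DESeq2, 4 without the filter, 4 with the top accession, 9 with the compared libraries alone, 4 with the length trend removed and 20 without Astrocytes 1 and OPC 3. The cause was not tested, except that fewer libraries enter some of these fits. Library size alone moved the median of all genes to −0.23, −0.39 and −0.02 for DRG against OPC, DRG against Astrocytes and OPC against Astrocytes, from −0.08, −0.13 and 0.09; RLE factors moved it to 0.09, −0.06 and −0.01.

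Members higher in DRG than in OPC numbered 2 at a 2-fold minimum and 4 to 5 with 1 library left out; members lower, 27 to 30. Members higher in DRG than in Astrocytes numbered 7 with the length trend removed, 2 at a 2-fold minimum, 6 with DESeq2 and 4 to 6 with 1 library left out; members lower, 18 to 23. Members higher in OPC than in Astrocytes numbered 10 without Astrocytes 1 and OPC 3, 12 at a 2-fold minimum and 14 to 22 with 1 library left out; members lower, 3 to 5. The difference in the Ezh1 to Ezh2 ratio ranged from 7.64 to 8.47, 4.54 to 6.08 and −3.62 to −2.07 with 1 library left out.

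The labels do not say whether replicate numbers pair the cultures. Deviations of same-numbered libraries correlated at −0.037 to 0.114 and those of differently numbered libraries at −0.116 to 0.073. With 3 libraries per group these values cannot decide whether the cultures were paired. With the replicate block the counts were 4 and 30 for DRG against OPC, 4 and 24 for DRG against Astrocytes and 20 and 4 for OPC against Astrocytes. Kmt2a against Astrocytes (adjusted p = 0.0586) and Kdm5c in OPC against Astrocytes (adjusted p = 0.0626) lost the call.

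Differences that were not called changed sign as follows. Suz12 in DRG against OPC was 0.18 with RLE factors, 0.19 with DESeq2, 0.0055 with the top accession, 0.0045 with the compared libraries alone, 0.073 with the length trend removed, 0.0022 for accession 2 and −0.13 to 0.26 with 1 library left out. Cbx7 in DRG against Astrocytes was 0.11 without Astrocytes 1 and OPC 3 and −1.88 to 0.013 with 1 library left out. Cbx5 in OPC against Astrocytes was −0.044 without Astrocytes 1 and OPC 3, −1.49 for accession 2 and −0.042 to 0.32 with 1 library left out. Kdm6a with 1 library left out was −0.44 to 0.055 in DRG against OPC and −0.43 to 0.15 in OPC against Astrocytes, and 0.15 in the second without Astrocytes 1 and OPC 3. Hdac4 in DRG against Astrocytes was −0.034 with library size alone. Kat5 in DRG against OPC was −0.32 with the top accession, −1.47 for accession 3 and −0.32 for accession 4; accession 3 gave −1.19 in DRG against Astrocytes and accession 5 gave −0.64 in OPC against Astrocytes. Depth limits Setdb1 (84 counts), Pcgf2 (125) and Kdm3a (242).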
